A study of Mus musculus with 6 samples.

Results

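The 10 genes described here encode antibody chains and their partners: the heavy chain constant regions Ighm, Ighd and Igha, the light chain constant regions Igkc, Iglc1, Iglc2 and Iglc3, the joining chain Jchain, and the B cell receptor subunits Cd79a and Cd79b. They were chosen by symbol, and all 10 were found, in 16 of the 105129 transcript rows (33641 gene symbols) of the deposited table. The list was drawn up because Ighm had been seen to be lower in homozygous than in WT muscle. The difference between genotypes in these 10 genes is therefore given as a description, with no test.

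The libraries are poly-A selected, stranded RNA-seq of mouse quadriceps, a mixed limb muscle, from males aged 4 months, littermates of heterozygous parents, taken at about ZT4 (ZT, hours after lights on). The homozygous group (3 libraries) carried on both chromosomes an allele made to copy the human variant rs6190, which lies in the glucocorticoid receptor gene, and the WT group (3 libraries) carried the reference allele on both. The labels name no treatment. They do not say whether each library came from its own animal, so p-values measure the spread between these libraries. Values are TPM (transcripts per 1000000, corrected for transcript length), and skeletal muscle genes were at high levels in every library, with Acta1, the skeletal muscle actin, between 16711 and 27969 TPM.

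An antibody is built from heavy and light chains, and a B cell joins V, D and J segments before it makes a working heavy chain from them. The first heavy chain made is that of IgM, encoded by Ighm. Its RNA ends in one of alternative ways: a proximal end gives the secreted antibody, and splicing to a pair of distal exons gives the membrane form, which sits in the B cell receptor with a light chain and with CD79A and CD79B. IgD comes from the same primary transcript as membrane IgM, IgA is the antibody of mucosal surfaces, and the J chain links IgM or IgA units into polymers in plasma cells. In a muscle, RNA of this kind can come from lymphocytes in blood, fat or connective tissue as well as from other cells.

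Ighm (chromosome 12, 113418558 to 113422730, minus strand, GRCm38) had 2 rows in the table, which share their first coding exons and differ at the 3′ end. The membrane-type row (ENSMUST00000177715.7, 1698 nt, 6 exons) runs on into the distal exons 5 (chr12:113418953-113419068) and 6 (chr12:113418558-113418834). The secreted-type row (ENSMUST00000103426.2, 1493 nt, 4 exons) ends in a longer exon 4 (chr12:113420741-113421261). The last coding bases of each are shown because the level of Ighm was carried almost wholly by one of them. They are from the GENCODE M21 transcripts, 5′ to 3′, with the last 30 shared bases in lower case and the bases found in that row alone, through the stop codon, in capitals.
membrane-type Ighm: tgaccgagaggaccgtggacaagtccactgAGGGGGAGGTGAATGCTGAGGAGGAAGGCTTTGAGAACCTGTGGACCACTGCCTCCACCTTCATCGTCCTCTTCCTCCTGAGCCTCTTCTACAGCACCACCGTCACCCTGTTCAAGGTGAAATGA
secreted-type Ighm: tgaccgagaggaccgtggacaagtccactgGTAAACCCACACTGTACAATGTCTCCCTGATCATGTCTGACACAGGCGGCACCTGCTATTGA
The capitals run over 125 bases in the membrane-type row and 62 in the secreted-type row, after 1305 shared coding bases.

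**Figure D1:**
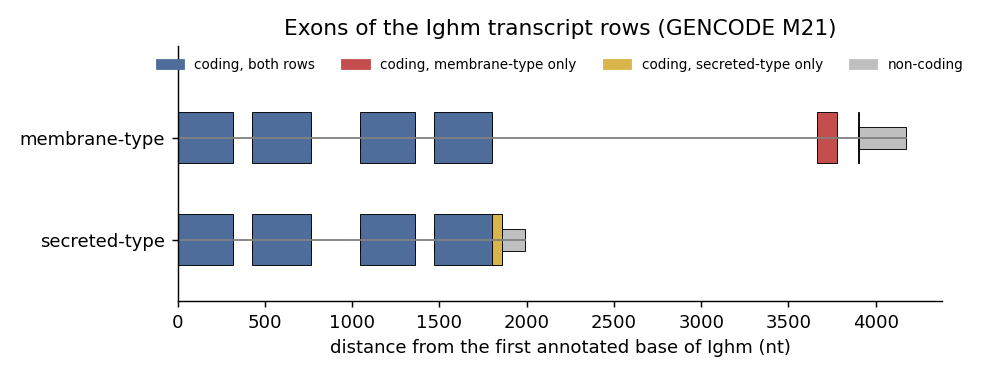
Exons of the Ighm rows, drawn to scale by distance in nt from the first annotated base. Tall boxes are coding and short boxes non-coding, blue is coding sequence in both rows, red coding sequence of the membrane-type row alone and yellow coding sequence of the secreted-type row alone. The rows share their first coding exons and part at the end of exon 4.

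Each stretch of 31 bases in these rows was looked up in all GENCODE M21 transcripts, on both strands, to see whether reads of Ighm could be shared with another gene. Of 1668 such stretches in the membrane-type row and 1463 in the secreted-type row, 0 occurred in a transcript of any other gene. The rows shared 1275 with each other, so their split rests on 393 stretches of the membrane-type row and 188 of the secreted-type row.

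Ighm was the only member at an appreciable level. It was 26.4, 23.2 and 54.5 TPM in homozygous replicates 1, 2 and 3 and 88.4, 81.0 and 103 TPM in WT replicates 1, 2 and 3. The groups did not overlap, and homozygous replicate 3 lay between the other homozygous libraries and the WT libraries. Among all genes above 0 it ranked 2549, 2896 and 1430 in homozygous replicates 1 to 3 and 807, 839 and 700 in WT replicates 1 to 3, counted from the highest. It made up between 93.6% and 99.3% of the summed TPM of the 10 members in every library.

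The level of Ighm was mostly that of the membrane-type row. That row was 22.5, 21.1 and 51.7 TPM in homozygous replicates 1 to 3 against 80.1, 74.5 and 97.6 in WT replicates 1 to 3. The secreted-type row was 3.95, 2.15 and 2.73 TPM in homozygous replicates 1 to 3 against 8.25, 6.50 and 5.66 in WT replicates 1 to 3. Both rows were lower in every homozygous library than in any WT library. The membrane-type share of Ighm was 85.1%, 90.7% and 95.0% in homozygous replicates 1 to 3 against 90.7%, 92.0% and 94.5% in WT replicates 1 to 3. These shares overlapped, at 90.3% ± 4.98 and 92.4% ± 1.96 (SD, n = 3 each).

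**Figure D2:**
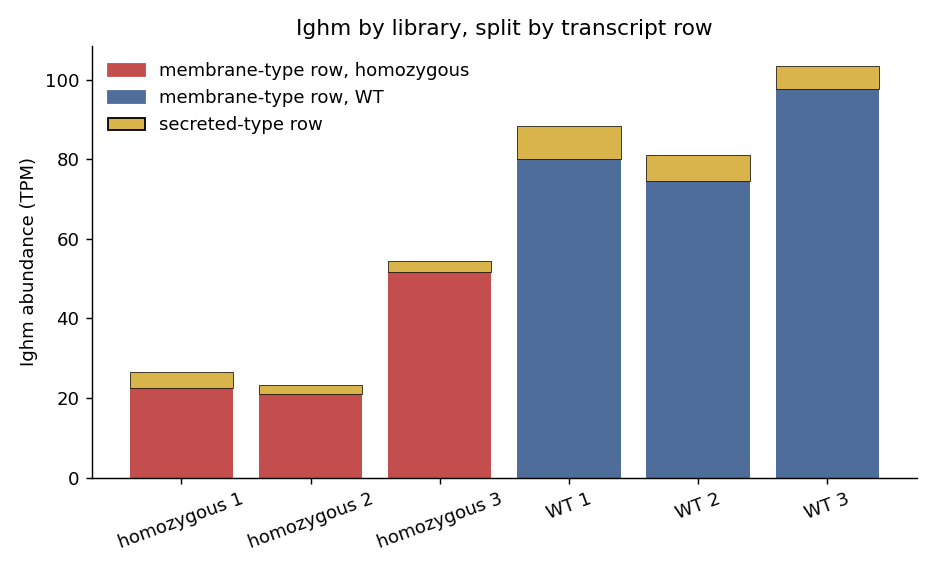
Ighm abundance in TPM in each of the 6 libraries. The lower part of each bar is the membrane-type row (red in homozygous, blue in WT) and the yellow part the secreted-type row. The homozygous bars reach 26.4, 23.2 and 54.5 TPM and the WT bars 88.4, 81.0 and 103 TPM.

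The mean of Ighm in homozygous muscle was 0.382 of that in WT muscle. On the log2(TPM + 1) scale, used for all fold changes here, on which low genes change less than in TPM, the difference was -1.46 (SE 0.29, homozygous minus WT, limma). The membrane-type row differed by -1.49 (SE 0.34) and the secreted-type row by -0.996 (SE 0.24). The median difference over all 11099 genes tested was 0.26 in the other direction, so Ighm lay -1.72 from that median. Ighm was the only 1 of the 10 members that passed the filter on low values (1 TPM or more in at least 3 libraries). Among all genes tested, 0.73% (81 genes) had every homozygous library below every WT library, and 2.11% of 21165 transcript rows did so. These shares were counted on TPM without centring, where the median lay toward higher in homozygous, and were not counted on a centred scale. The count of genes past an adjusted p of 0.05 over all genes was 0 (limma, 0% called), against 2697 at an unadjusted p under 0.05 (24.3%). Of these, 2636 were higher and 61 lower in homozygous muscle, but the split was 504 against 482 with quantile normalization and 405 against 512 with median centring. Of the transcripts, 9 passed (0.0425%).

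**Figure D3:**
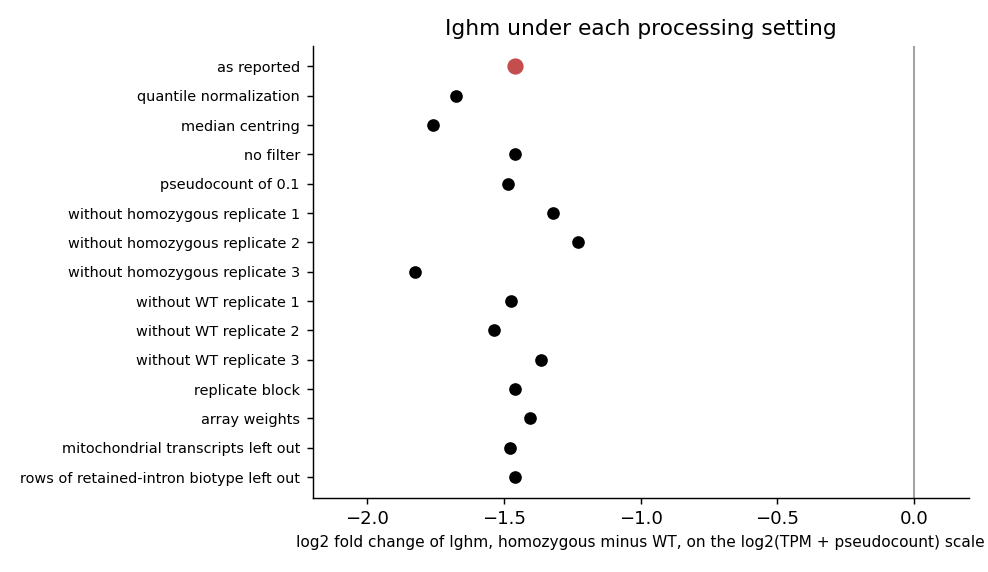
Log2 fold change of Ighm, homozygous minus WT, as reported (red) and under each other processing setting or with 1 library left out (black). The points lie between -1.83 and -1.23, all below 0. No filter, the replicate block and retained-intron rows left out could not move the value. Because the groups did not overlap, leaving out 1 library or changing the pseudocount could not bring it to 0.

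The libraries also differed in other tissue components. Summed TPM of 9 slow fibre genes was 1682, 9145 and 2003 in homozygous replicates 1 to 3 against 1579, 1019 and 207 in WT replicates 1 to 3. The library with the lowest Ighm had the highest slow fibre sum and the library with the highest Ighm the lowest. The libraries between did not keep this order. Homozygous replicate 1 and WT replicate 1 had similar sums at 26.4 and 88.4 TPM of Ighm, and homozygous replicate 3 exceeded homozygous replicate 1 in both. Among the fast fibre myosins, Myh1 and Myh2 were higher in every homozygous library, while Myh4 overlapped. Myh1 (type IIX) was 1183, 1253 and 942 TPM in homozygous replicates 1 to 3 against 464, 315 and 239 in WT replicates 1 to 3, with a log2 fold change of 1.77 (SE 0.25; adjusted p 0.168 in limma). Myh2 (type IIA) was 593, 728 and 478 TPM against 361, 272 and 122 in the same order. The groups did not overlap for Myh1 or Myh2, with homozygous higher, as for 34.7% of all genes tested. Myh4 (type IIB) was 6742, 4176 and 4988 TPM in homozygous replicates 1 to 3 against 6558, 5699 and 14390 in WT replicates 1 to 3. Its groups overlapped, with a log2 fold change of -0.65 (SE 0.37). WT replicate 3 stood apart, with Pearson correlations of log2 values across genes of 0.951 to 0.965 with the others, against 0.972 to 0.987 among the rest. Without WT replicate 3 the log2 fold change of Ighm was -1.36. Summed TPM of 6 red blood cell genes was 536 to 781 in the homozygous and 476 to 851 in the WT libraries. The sum of 7 adipocyte genes, 149 to 187 TPM and 157 to 179 TPM, was mostly Fabp4, which is also made in capillary endothelium. Narrower adipocyte genes varied more: Cfd (adipsin) was 4.20, 3.78 and 17.5 TPM in homozygous replicates 1 to 3 against 4.43, 13.3 and 10.4 in WT replicates 1 to 3, and Adipoq (adiponectin) 0.847, 0.684 and 2.81 against 0.679, 1.42 and 1.45. Homozygous replicate 3, the highest of its group in Ighm, was the highest of all 6 libraries in Cfd, Adipoq, Cidec, Plin1 and Retn. The other genes of this list went differently: Lep (leptin) was highest in WT replicate 3, and Fabp4 in homozygous replicate 1. The groups overlapped for every gene of the list. The part of fibre type, blood or fat in the level of Ighm was not tested.

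The light chains, without which a heavy chain is not normally displayed or secreted, were near 0. Igkc, the kappa constant region (chromosome 6, 70726435 to 70726966), was 0.287, 0 and 0.552 TPM in homozygous replicates 1 to 3 against 0.316, 1.24 and 0.327 in WT replicates 1 to 3. The groups overlapped, and WT replicate 2 was highest. Iglc1 was listed at 0 in all 6 libraries. Iglc2 reached 2.19 TPM in WT replicate 2 and was at 0 in all other libraries, and Iglc3 was 0.240 TPM in homozygous replicate 2 and listed at 0 in the other 5. The constant-region rows of Iglc2 and Iglc3 were identical at 94.3% of aligned bases, and 106 of the 428 stretches of 31 bases in that of Iglc2 also occurred in Iglc3, so the assignment between these lambda genes is uncertain. Ighm exceeded the sum of the 4 light chain constant genes 92.0, 96.9 and 98.7 times in the homozygous libraries, and 280, 23.6 and 316 times in the WT libraries.

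TPM keeps no read counts, but low values of long single-transcript genes fell on steps that gave an estimate of the fragments behind each value. On that estimate Ighm rested on 736, 499 and 1198 fragments in homozygous replicates 1 to 3 against 2253, 1829 and 2530 in WT replicates 1 to 3. Igkc rested on 2, 0 and 3 fragments in homozygous replicates 1 to 3 against 2, 7 and 2 in WT replicates 1 to 3. At this depth no difference between genotypes in the light chains was detectable. Estimated depth was between 15.8 and 21.8 M fragments per library (M, 1000000).

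The other heavy chain constant regions among the members were also low. Ighd (chromosome 12, 113406604 to 113416324), which lies just downstream of Ighm and whose RNA is made with that of membrane IgM in mature B cells, was at most 0.107 TPM and listed at 0 in homozygous replicate 1 and WT replicate 3. That maximum rested on an estimated 1 fragment, and no library held more than 2. Igha (chromosome 12, 113254830 to 113260236) was 0.344, 0.225 and 0.588 TPM in homozygous replicates 1 to 3 against 0.0629, 1.35 and 0 in WT replicates 1 to 3. The groups overlapped for both genes.

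Jchain (chromosome 5, 88519809 to 88527891) was 0.175, 0.114 and 0.112 TPM in homozygous replicates 1 to 3 against 0.0960, 0.597 and 0.151 in WT replicates 1 to 3. In WT replicate 3 most of this was a row with a retained intron, at 0.131 TPM. Cd79a (chromosome 7, 24897381 to 24902197) and Cd79b (chromosome 11, 106311341 to 106314762) encode the chains that carry the signal of the B cell receptor. Cd79a was 0.0833, 0 and 0.0534 TPM in homozygous replicates 1 to 3 against 0.0913, 0.103 and 0.0954 in WT replicates 1 to 3. These values did not overlap, but they rested on 0 to 2 estimated fragments per library, and homozygous replicate 1 had as many as each WT library, so no difference was detectable at this depth. Cd79b was at most 0.340 TPM, on 0 to 5 estimated fragments, and its groups overlapped.

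**Figure D4:**
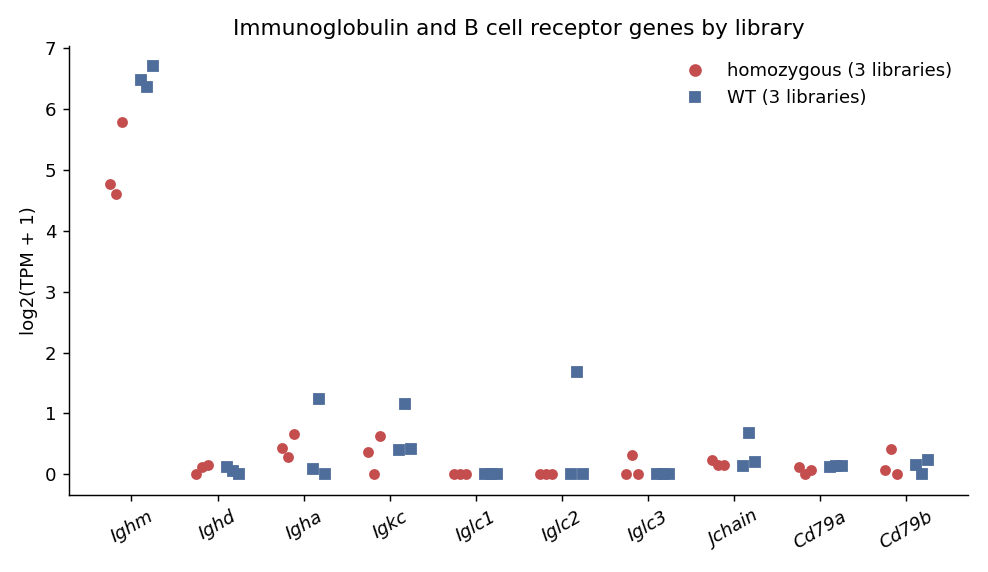
Each of the 10 members in each library, as log2(TPM + 1), with circles for the 3 homozygous and squares for the 3 WT libraries. Ighm lies between 23.2 and 103 TPM, and every other member lies at or under 2.19 TPM.

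Some of the small amounts of antibody RNA other than Ighm were highest together in WT replicate 2. That library had the highest Igkc, Igha, Iglc2 and Jchain of the 6, on an estimated 7, 19, 13 and 11 fragments. It also held the highest V segments, the variable parts joined to these chains: Iglv2 at 1.88 TPM and Igkv1-117 at 1.33 TPM, each listed at 0 in the other 5 libraries. In the same library Ighm was the lowest of the WT group, at 81.0 TPM. Other antibody genes peaked elsewhere. Ighd (0.107 TPM) and Ighg2c, outside the list (7.53 TPM), were highest in homozygous replicate 3, and Iglc3 (0.240 TPM) in homozygous replicate 2. The order of the libraries by Ighm was thus not their order by Igkc, Igha, Iglc2 or Jchain.

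V segments as a whole were nearly absent. Of 436 V segment rows, 16 were above 0 in at least 1 library, 1 in 2 or more and 0 in 3 or more. The 237 heavy chain V rows summed to 0.657, 0 and 0 TPM in homozygous replicates 1 to 3 against 1.26, 0.595 and 0 in WT replicates 1 to 3, or 0% to 2.48% of the Ighm level in the same library. The heavy chain V segment with the highest mean was Ighv10-1, at 0.292 and 0.323 TPM in WT replicates 1 and 2 and listed at 0 elsewhere. Igkv10-94 and Igkv10-96 were 0.842 and 0.793 TPM in homozygous replicate 1 and listed at 0 in the other 5. All 18 J segment rows, which are very short, were listed at 0. V rows are also short, and an assembled V region can differ in sequence from its annotated segment, so their sums may be too low. How much was not tested.

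Of the heavy chain constant genes outside the list, Ighg2c (chromosome 12, 113285325 to 113288932), an IgG constant region, was measurable. It was 1.99, 3.69 and 7.53 TPM in homozygous replicates 1 to 3 against 7.23, 5.63 and 0.844 in WT replicates 1 to 3. The groups overlapped, and differed by 0.082 on the log2 scale (SE 0.62; adjusted p 0.936 in limma). Ighg2c was mostly its secreted-type row, with 0% to 21.2% in the membrane-type row, against 85.1% to 95.0% for Ighm. WT replicate 3, the library highest in Ighm, was the lowest in Ighg2c. Ighg1 and Ighg3 were listed at 0 in every library.

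Genes that mark B cells were near 0 beside Ighm. Ms4a1 (CD20) and Pax5, which are named here as defining markers of the B cell lineage, were at most 0.0714 and 0.0151 TPM, and Blk was listed at 0 in every library. Of 20 B cell identity genes, 16 stayed under 1 TPM in every library. Their summed level was 4.73 to 5.75 TPM in the homozygous and 5.89 to 6.48 TPM in the WT libraries, ranges that did not overlap. With Cr2 left out, an alternative chosen after seeing the data, the sums were 4.03 to 5.75 TPM in the homozygous and 4.15 to 5.49 TPM in the WT libraries, and overlapped. The highest members of that list were Ly86, Ebf1 and Cr2. Cr2, complement receptor 2, was 0.808, 0 and 0.112 TPM in homozygous replicates 1 to 3 against 1.78, 0.989 and 0.949 in WT replicates 1 to 3. It lay below the filter and was not tested.

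Across all lists of B cell and antibody genes with the members left out, 88 of 89 genes were in the table, 52 stayed under 1 TPM in every library and 26 were tested. None of the 26 passed the threshold (limma; 0% over all genes). At an unadjusted p under 0.05 there were 3, all higher in homozygous muscle (23.7% over all genes), and 0 lower (0.55% over all genes). Every homozygous library lay above every WT library for 5 of the 26 (34.7% over all genes), and below for 0 (0.73% over all genes). Their median log2 fold change was 0.24, beside 0.26 over all genes. By lists, the tested genes numbered 2 of 20 for B cell identity, 6 of 18 for receptor signalling, 10 of 18 for plasma cells and antibody secretion, 3 of 10 for antibody transport and Fc receptors and 4 of 9 for class switch and recombination.

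The 3 were Xbp1, a transcription factor of the unfolded protein response that plasma cells need, Ell2, an elongation factor, and Sel1l, a part of the machinery that degrades misfolded proteins. Xbp1 was 29.1, 29.6 and 34.4 TPM in homozygous replicates 1 to 3 against 24.4, 27.4 and 21.4 in WT replicates 1 to 3, which differed by 0.34 on the log2 scale (SE 0.14; adjusted p 0.201 in limma), or 0.073 above the median of all genes. Ell2 and Sel1l had log2 fold changes of 0.52 and 0.41, or 0.26 and 0.15 above that median (limma, adjusted p 0.178 and 0.170). None was past the threshold. These genes are active in many cell types. Plasma cell genes with a narrower range were low, with Tnfrsf17 (the receptor BCMA) at most 0.329 TPM and Mzb1 between 0.578 and 1.13 TPM.

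Among receptor signalling genes, Cd81, a tetraspanin shared with other cells, was 35.9 to 43.3 TPM. Pik3cd was 3.28 to 6.22 TPM and Fcgr2b 0.777 to 2.51 TPM, and Btk stayed at or under 0.232 TPM. Fcgrt, the neonatal Fc receptor that recycles IgG, was 17.9 to 22.7 TPM in the homozygous and 18.2 to 22.3 TPM in the WT libraries, with a log2 fold change of -0.022 (SE 0.15). Pigr, which carries IgA and IgM across epithelia, was at most 0.0191 TPM. The 20 T and NK cell genes summed to 2.81 to 4.77 TPM in the homozygous and 2.77 to 3.04 TPM in the WT libraries. The MHC class II list summed to 44.9 to 62.1 TPM and 27.8 to 87.4 TPM, lowest in WT replicate 3. The 17 macrophage and dendritic cell genes summed to 65.6, 86.8 and 98.4 TPM in homozygous replicates 1 to 3 against 60.3, 86.7 and 23.0 in WT replicates 1 to 3, so WT replicate 3, the highest in Ighm, was the lowest here. Of 10 tested, 0 passed the threshold (limma; 0% over all genes), and 3 had an unadjusted p under 0.05, all higher in homozygous muscle (23.7% over all genes): Csf1r, Cd68 and Zbtb46. All 10 had a log2 fold change above 0, with a median of 0.62 beside 0.26 over all genes. The part of these cells in the level of Ighm was not tested. In a bulk library, fewer cells of a type and less RNA per cell cannot be told apart.

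**Figure D5:**
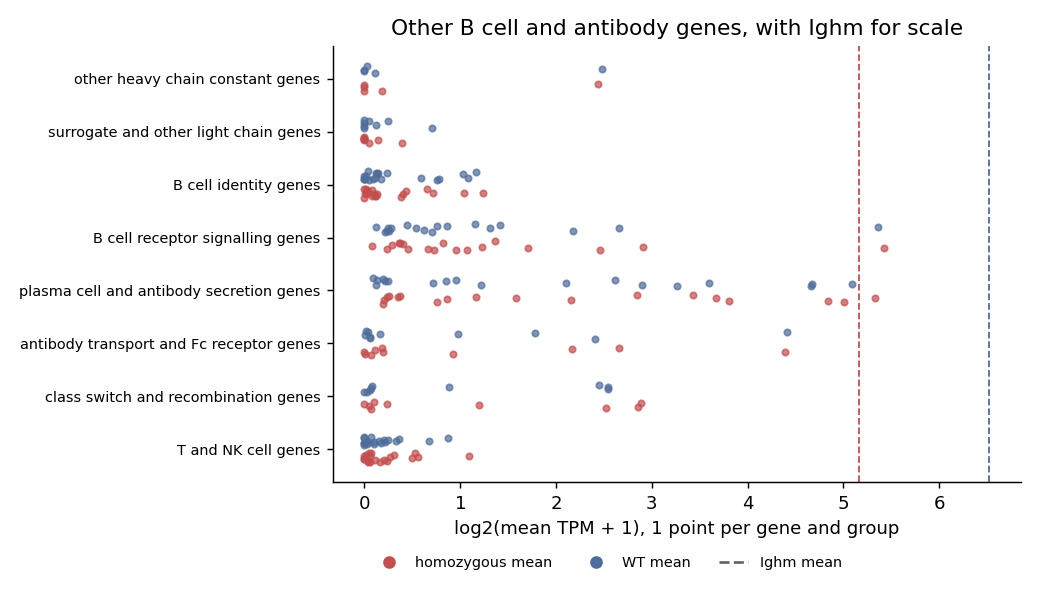
Genes of 8 lists, 1 point per gene and group at log2(mean TPM + 1), with red for homozygous and blue for WT. Dashed lines mark the mean of Ighm in each group. In WT muscle no gene of these lists reaches the line. In homozygous muscle Cd81 and Hsp90b1 (means 41.9 and 39.1 TPM) lie past that of Ighm (34.7 TPM). Most B cell identity genes lie at the left edge.

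Among the 11098 other genes tested, those whose pattern over the 6 libraries was most like that of Ighm included Commd5, Gm10327, Hikeshi and Yjefn3, with Pearson r of 0.985, 0.984, 0.975 and 0.940 on log2(TPM + 1). Each r rests on 6 points that share the difference between groups. Gm10327 was 9.06, 8.18 and 12.0 TPM in homozygous replicates 1 to 3 against 14.4, 12.7 and 16.0 in WT replicates 1 to 3. Its groups did not overlap, with homozygous lower, as for 0.73% of all genes tested. Gm10327 was picked for its likeness to Ighm, whose groups also did not overlap, so this is not a separate result. Commd5 stayed between 8.42 and 9.66 TPM, so a high r went with a small difference in level. It was highest in WT replicate 2, the lowest of the WT group in Ighm. None of these genes belongs to a B cell list used here. Those lists held only 26 of the 11098 genes compared, so their absence among so few genes says little.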

How the data were processed

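The deposited table holds TPM per transcript and library; the authors' values are per transcript length and sum to 1000000 in each library. FastQC, Trimmomatic, HISAT2, kallisto and the build mm10 are named in the submitters' processing notes, with no role or version, and the annotation release is not stated. Each column was matched to 1 sample by title, and 0 columns were left over. Rows were annotated with GENCODE M21 (GRCm38; 99505 of 105129 rows matched with version).

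TPM was summed per gene and tested as log2(TPM + 1) with limma 3.58.1 in R 4.3.3 (trend, robust, genotype as the only term, Benjamini-Hochberg adjustment over all genes) for genes that reached 1 TPM in 3 or more libraries. The test had been written for either counts or TPM, and the TPM branch applied. Fragments were estimated from low values of single-transcript genes of at least 1500 nt: 76.4% to 79.3% of 415 to 453 low values per library were whole to within 0.03. For a step fixed in advance, chance gives 6%. The step was fitted to make this share highest, so its chance level is above that and was not estimated. Python 3.11.15 was used for the rest. The test was checked on simulated data with independent noise per gene. The simulation held no shift shared by most genes and no library that stood apart, so it does not cover these features of the data.

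Named were the 10 members, list genes at an unadjusted p under 0.05 or among the 3 highest of their list (those that bear on antibody genes are printed), the 5 V segments with the highest mean and the 5 genes most like Ighm; some genes under this rule are not reported here. Defining markers and some other list genes were named outside that rule. The members and lists were chosen with earlier results of these data known. Alternatives were quantile normalization, median centring, no filter, a pseudocount of 0.1, each library left out, a replicate block, array weights, mitochondrial transcripts left out and, for members, retained-intron rows left out. Cr2 left out of its list was added after seeing the data.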

Additional observations from a re-analysis of the deposited data

How the results depend on the processing

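The log2 fold change of Ighm was -1.83 to -1.23 over 14 alternatives, and moved by less than the spread between libraries. By construction, 3 of these could not move it: no filter, the replicate block in a balanced design, and retained-intron rows left out. Ighm has no retained-intron rows. Leaving out 1 library each gave this whole range. As the groups did not overlap, those fits and the changed pseudocount could not change the sign of the value. Genes past the threshold, 0 as reported, numbered 810 with array weights and 0 to 2 with 1 library left out (2 without WT replicate 1, 1 without WT replicate 2). The count of 9 transcripts was 3 with quantile normalization, 5 with median centring, 0 with no filter, 4 with a pseudocount of 0.1, 14 with array weights, 5 with mitochondrial transcripts left out, and 0 to 38 with any 1 library left out (38 without WT replicate 1, 0 without WT replicate 3 or any 1 homozygous library). No filter tests more rows; otherwise the cause was not tested. Of the B cell and antibody genes outside the members, 0 passed in all 13 alternatives; 0 to 6 had an unadjusted p under 0.05. The genes at an unadjusted p under 0.05 split into 2636 higher and 61 lower, but 504 and 482 with quantile normalization and 405 and 512 with median centring.

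With the replicate number as a block, 0 genes and 0 transcripts passed. Deviations of same-numbered libraries correlated at -0.071, 0.061 and -0.013 across genes, so the numbers were not taken to pair the libraries. Depth limits the members other than Ighm, which rested on an estimated 19 fragments or fewer per library. Shares of kappa and of V segments therefore carry little weight.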
